A study of Mus musculus with 9 samples.

Results

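Heavy chain variable (Ighv) segment usage was measured in splenic B-lineage cells as the share of summed Ighv transcripts that belonged to each segment. Every gene of the expression table with immunoglobulin (Ig) genes whose symbol starts with Ighv was taken, which gave 170 segments of 30317 listed genes. The 170 segments fall into 16 families, named by the number before the first hyphen. The 9 libraries form 3 groups of 3. All came from spleens of 12-week-old B6.Blimp1+/GFP mice, taken 4 days after the animals had received 50 µg of NP-LPS by the intraperitoneal route. NP-LPS is bacterial lipopolysaccharide (LPS) that carries the small hapten nitrophenyl (NP). All groups carried the same reporter allele, in which 1 copy of the Blimp1 gene drives GFP, and all came from immunized animals, so the naive cells are an internal and not an unimmunized control. Cells with CD4, CD8α, F4/80 or the erythroid marker Ter-119 had been gated out of every group. Naive cells were sorted as IgD high B220+ cells without NP binding. The activated population, called NP+ B cells here, was B220+, bound NP and had no IgD, GFP or CD138. Plasma cells (PCs) bound NP too, had no IgD and had both GFP and CD138, and both groups together are called NP+ cells or libraries. The sorted cells came from 3 individuals, but which library came from which mouse is not given, and p-values therefore measure the spread between libraries.

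A heavy chain variable region is assembled in each developing B cell from 1 V, 1 D and 1 J segment, so a mature B cell and its progeny usually express a single Ighv segment. In mice of the C57BL/6 background, the early response to NP is known for antibodies that pair the V186.2 heavy chain segment, listed here as Ighv1-72, with a lambda light chain. LPS is a T cell-independent stimulus that drives B cells into division and antibody secretion.

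Of the 170 segments, 168 had a single entry in the GENCODE M21 annotation of mouse build GRCm38 (mm10, the build in the submitters' processing notes). All 168 lie on chromosome 12 between 113572927 and 116000461, a span of 2.428 Mb, with Ighv5-1 nearest to and Ighv1-85 farthest from the D segments. The annotation lists 110 of them as V genes and 58 as V pseudogenes. The V regions of Ighv1-72 (chr12:115757984-115758277, minus strand) and of the 3 relatives that matter for its measurement are shown because short reads can be assigned to more than one of them. Each is the coding exon sequence after the leader, 294 bases long and 5′ to 3′, and capitals mark bases that differ from Ighv1-72.
Ighv1-72: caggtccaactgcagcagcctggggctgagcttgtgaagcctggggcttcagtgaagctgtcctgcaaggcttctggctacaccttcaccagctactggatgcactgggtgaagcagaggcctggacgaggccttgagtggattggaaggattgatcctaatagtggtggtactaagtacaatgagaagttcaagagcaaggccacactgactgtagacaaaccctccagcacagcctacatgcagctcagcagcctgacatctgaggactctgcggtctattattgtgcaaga
Ighv1-62-3: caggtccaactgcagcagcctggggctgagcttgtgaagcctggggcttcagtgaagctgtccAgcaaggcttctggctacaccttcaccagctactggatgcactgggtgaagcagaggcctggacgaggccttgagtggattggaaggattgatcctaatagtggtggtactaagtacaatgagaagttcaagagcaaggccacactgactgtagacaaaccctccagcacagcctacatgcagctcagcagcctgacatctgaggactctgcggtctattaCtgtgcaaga
Ighv1-53: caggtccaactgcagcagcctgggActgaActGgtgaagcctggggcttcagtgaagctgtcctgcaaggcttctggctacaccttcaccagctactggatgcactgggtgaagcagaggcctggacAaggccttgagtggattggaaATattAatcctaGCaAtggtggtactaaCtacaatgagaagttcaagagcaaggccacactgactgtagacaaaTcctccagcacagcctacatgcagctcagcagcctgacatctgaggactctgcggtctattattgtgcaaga
Ighv1-64: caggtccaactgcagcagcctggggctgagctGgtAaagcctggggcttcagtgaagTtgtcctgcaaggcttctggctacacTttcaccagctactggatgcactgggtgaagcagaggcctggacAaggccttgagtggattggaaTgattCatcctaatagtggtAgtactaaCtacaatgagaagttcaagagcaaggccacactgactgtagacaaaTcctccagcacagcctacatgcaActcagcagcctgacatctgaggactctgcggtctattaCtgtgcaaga

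Ighv1-62-3 (chr12:115460999-115461292) differs from Ighv1-72 at 2 bases, T64A and T285C counted from the first base shown, and the affected codons read tgc against agc and tat against tac. Ighv1-53 (chr12:115158403-115158696) and Ighv1-64 (chr12:115507545-115507838) differ from it at 12 bases each. The authors' program, kallisto, assigns reads through short stretches, 31 bases long by default. Ighv1-62-3 shares 294 such stretches with Ighv1-72, which are 78.4% of its own and 80.3% of those of Ighv1-72. Only 1.91% of the stretches of Ighv1-72 occur in no other Ighv segment, and no base of its V region above lies in one. The division of reads between Ighv1-72 and Ighv1-62-3 is therefore uncertain, and their sum is given beside the single values.

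The V regions of Ighv14-3, Ighv5-17 and Ighv6-3, the segments outside family 1 that reached 10% in a library, and of Ighv9-3, a leading naive segment, are shown in lower case for comparison.
Ighv14-3: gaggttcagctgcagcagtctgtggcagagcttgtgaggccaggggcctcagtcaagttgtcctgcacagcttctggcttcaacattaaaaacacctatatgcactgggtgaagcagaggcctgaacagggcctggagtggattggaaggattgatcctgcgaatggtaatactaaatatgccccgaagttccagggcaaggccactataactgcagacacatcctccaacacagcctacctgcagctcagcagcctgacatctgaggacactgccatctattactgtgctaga
Ighv5-17: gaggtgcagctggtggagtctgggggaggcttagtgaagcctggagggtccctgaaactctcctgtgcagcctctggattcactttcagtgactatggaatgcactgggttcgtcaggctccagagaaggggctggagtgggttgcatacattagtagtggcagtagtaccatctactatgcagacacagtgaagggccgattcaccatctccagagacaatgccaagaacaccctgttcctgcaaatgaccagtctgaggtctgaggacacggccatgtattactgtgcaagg
Ighv6-3: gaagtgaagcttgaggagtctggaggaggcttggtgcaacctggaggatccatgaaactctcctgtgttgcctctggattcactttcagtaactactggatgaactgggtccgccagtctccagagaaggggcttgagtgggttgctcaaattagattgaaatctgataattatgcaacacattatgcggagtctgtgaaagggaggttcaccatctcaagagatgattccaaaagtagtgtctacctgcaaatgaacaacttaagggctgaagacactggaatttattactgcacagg
Ighv9-3: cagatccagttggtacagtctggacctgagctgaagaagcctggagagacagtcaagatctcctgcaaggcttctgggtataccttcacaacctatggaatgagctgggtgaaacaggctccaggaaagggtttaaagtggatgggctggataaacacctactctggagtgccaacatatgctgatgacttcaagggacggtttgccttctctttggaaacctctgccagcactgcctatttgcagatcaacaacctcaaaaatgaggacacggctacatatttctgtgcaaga

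They lie on the minus strand of chromosome 12 at 114059845 to 114060138 (Ighv14-3), 113859149 to 113859442 (Ighv5-17), 114391712 to 114392010 (Ighv6-3) and 114140692 to 114140985 (Ighv9-3). Ighv14-3 matched Ighv1-72 at 81.0% of V region bases (56 differences) and Ighv5-17 at 63.3%. Ighv14-3 shares no stretch of 31 bases with Ighv1-72, so reads could not be exchanged between them as whole matches.

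The libraries held 28958700 to 39341500 estimated reads. Ighv segments received 19145 to 21906 estimated reads in naive libraries, 31892 to 41604 in NP+ B cell libraries and 616885 to 779536 in PC libraries. A count of 3 reads, taken as the floor of detection, corresponds to a share of 0.0137 to 0.0157% in naive, 0.00721 to 0.00941% in NP+ B cell and 0.000385 to 0.000486% in PC libraries, and it covers counting error only. Markers of the sorted cells were checked. Ighd, the IgD constant gene, had a mean of 2843 TPM in naive cells, 40.3 in NP+ B cells and 0.704 in PCs, and Igj, the joining chain of secreted antibody, had 3.03, 370 and 15717 TPM. Other PC markers did not all rise in NP+ B cells as Igj did. Sdc1, which encodes CD138, was lower there, with 6.57, 0.849 and 84.5 TPM in the same order. Prdm1, the Blimp1 gene, had 2.34, 4.27 and 28.5 TPM, and Xbp1 had 111, 139.6 and 1216 TPM. Slpi had 0.525, 15.3 and 411 TPM. Tnfrsf17 was also higher in NP+ B cells (9.28 TPM) than in naive cells, and highest in PCs (214 TPM). The T cell markers Cd3e, Cd3g and Cd3d summed to at most 3.39 TPM in any library. Trac was listed at 0 in all 9 libraries, as were the Ighj and D segments, so nothing is read from that 0. The myeloid markers Lyz2, Csf1r and Cd68 summed to 4.89 to 5.73 TPM in naive, 46.7 to 61.0 TPM in NP+ B cell and 9.53 to 25.9 TPM in PC libraries. Cd68 carried most of that sum in NP+ B cells (40.3 to 59.8 TPM), while Csf1r stayed at or below 1.38 TPM. Lyz2 had 0.624 to 1.62 TPM in naive libraries. It had 0.783, 4.94 and 0.0276 TPM in NP+ B cells and 0.849, 3.21 and 14.5 TPM in PCs. The part of myeloid cells in the results was not tested. PC replicate 3 also held liver transcripts (Alb, Apoa1, Apoa2 and Ttr summed to 1348 TPM, against 6.20 and 7.65 in the other PC libraries). Values without that library are given for Ighv1-72, Ighv9-3, Ighv3-6, Ighv11-2 and Ighv12-3, and without it Ighv1-80 and Ighv1-9 were also called higher in share in PCs than in NP+ B cells (log2 change 2.74 and 2.64, adjusted p = 0.00322 and 0.00134).

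Naive cells used many segments at similar levels, whereas both NP+ populations were dominated by Ighv1-72. The largest naive segment, Ighv3-6, held 5.31% ± 0.24 of Ighv transcripts (SD, n = 3). Ighv1-72 held 57.3% ± 4.28 in NP+ B cells and 61.0% ± 2.81 in PCs, against 3.20% ± 0.28 in naive cells. Ighv14-3 was the second largest by mean share in both, followed by Ighv1-62-3 in NP+ B cells and by Ighv5-17 in PCs.

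**Figure D1:**
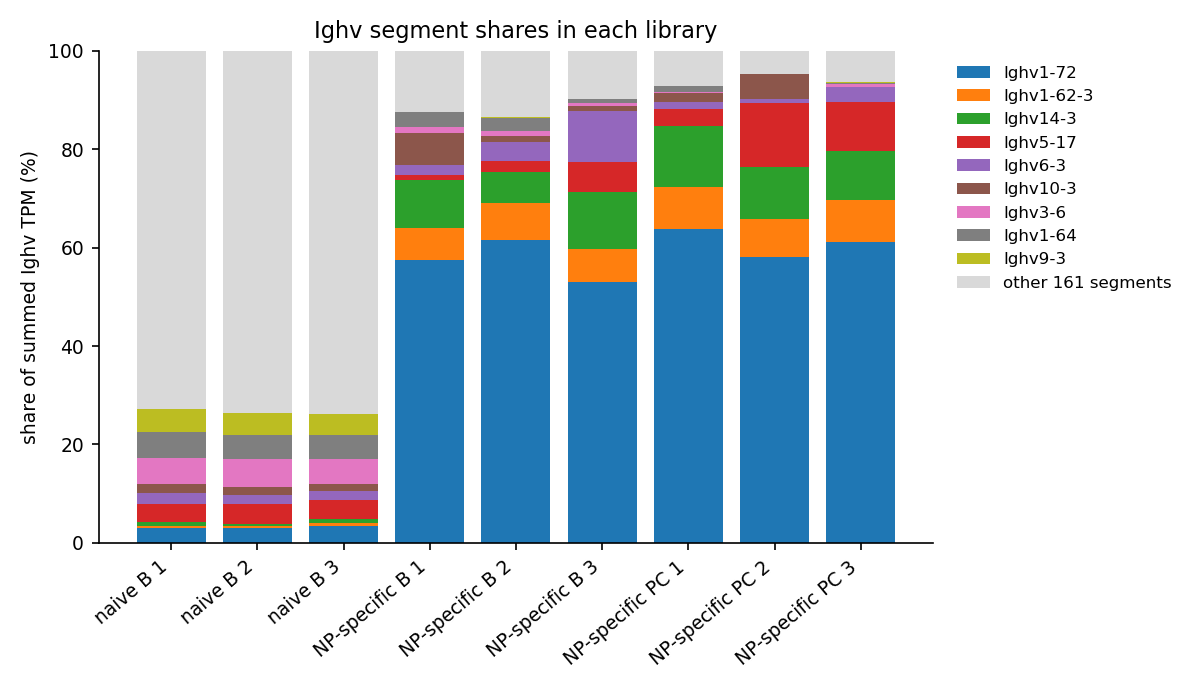
Share of summed Ighv TPM (%) held by 9 segments and by all other segments together in each of the 9 libraries. Ighv1-72 takes 52.9 to 63.7% in the 6 NP+ libraries and 3.00 to 3.52% in the naive libraries.

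Total Ighv RNA was examined first, since it is the denominator of every share. Ighv segments made up 0.631, 0.636 and 0.650% of listed TPM in naive cells and 0.658, 0.877 and 0.725% in NP+ B cells. In PCs they made up 9.55, 10.6 and 9.74%. The PC values lay above all others, 15.6-fold over the naive mean and 13.2-fold over the NP+ B cell mean, and the groups did not overlap in any of the 3 comparisons (two-sided exact permutation p = 0.1 each, the smallest p that 3 against 3 libraries allow). The folds depend on the unit: on estimated reads, Ighv segments made up 0.0669% of the naive, 0.0965% of the NP+ B cell and 2.19% of the PC total on average, a wider gap. Relative to the summed Igh constant genes, Ighv TPM came to 81.5% ± 1.69 in naive cells, 92.0% ± 8.93 in NP+ B cells and 132% ± 3.74 in PCs. In bulk samples, more cells of a clone and more RNA per cell cannot be told apart, so a share of RNA is not a share of cells.

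The spread of usage was measured as the effective number of segments, the inverse Simpson index, which equals the number of segments when all are used equally. It was 40.4, 40.4 and 42.1 in naive libraries, 2.85, 2.55 and 3.19 in NP+ B cells and 2.32, 2.67 and 2.48 in PCs. Both NP+ groups lay far below naive cells without overlap (exact permutation p = 0.1 for each), and they overlapped each other (p = 0.2, exact permutation). Taken as the exponential of the Shannon entropy, the number was 54.9 to 57.3 in naive libraries. It was then 5.91 to 6.30 in NP+ B cells and 4.39 to 4.47 in PCs, without overlap. To cover 90% of Ighv transcripts, 49 to 51 segments were needed in naive libraries, 7 to 9 in NP+ B cells and 5 in each PC library.

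**Figure D2:**
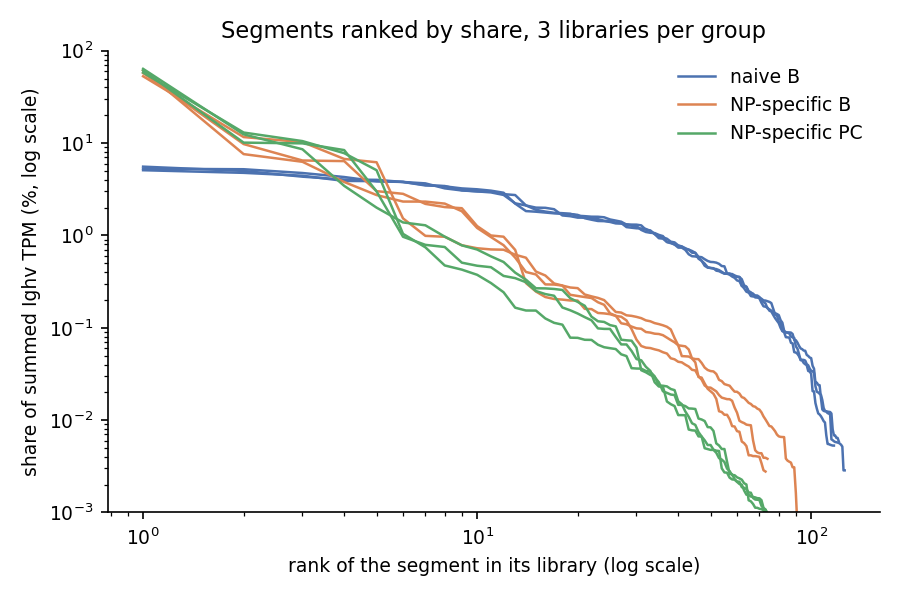
Segments of each library ranked by share (both axes logarithmic), 1 line per library and 3 per group. Naive lines start at 5.08 to 5.56% and fall slowly, whereas the NP+ lines start at 52.9 to 63.7%.

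Most segments detected in naive cells were still detected in at least 1 library of each NP+ group. Of 97 segments with at least 3 reads in every naive library, 15 had under 3 reads in all NP+ B cell libraries and 9 had under 3 reads in all PC libraries. Segments with a mean share of at least 1% numbered 35 in naive cells, 9 in NP+ B cells and 6 in PCs. Of the 170 segments, 14 were at 0 in all 9 libraries and 40 had under 3 reads in every library. Pseudogenes together held 1.60 to 1.73% in naive cells, 0.541 to 0.720% in NP+ B cells and 0.0555 to 0.225% in PCs.

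Ighv1-72, the V186.2 segment, held 3.00, 3.08 and 3.52% of Ighv transcripts in naive cells, where 8 segments had a higher mean share. It held 57.4, 61.5 and 52.9% in NP+ B cells and 63.7, 58.1 and 61.2% in PCs. The NP+ libraries were all above the naive ones, and the PC and NP+ B cell ranges overlapped. Its share was 17.9-fold higher in NP+ B cells and 19.1-fold higher in PCs than in naive cells (exact permutation p = 0.1 for each), and PCs exceeded NP+ B cells by 3.71 percentage points (exact permutation p = 0.3), a difference of 1.53 points without NP+ B cell replicate 3 and 5.81 without NP+ B cell replicate 2. Leaving out PC replicate 3, the difference between PCs and naive cells was 57.7 points, against 57.8 with it. Counted in estimated reads, the share of Ighv1-72 in single libraries had 95% Wilson intervals of, for example, 3.53 to 4.03% in naive replicate 2 and 58.7 to 59.8% in NP+ B cell replicate 1, which cover counting error only and not the spread between libraries.

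Ighv1-62-3, the near copy of Ighv1-72, held 0.495, 0.359 and 0.587% in naive cells, 6.48, 7.60 and 6.73% in NP+ B cells and 8.57, 7.77 and 8.40% in PCs, with no overlap between any of the groups. Its TPM stood in a nearly fixed proportion to that of Ighv1-72, at 11.6 to 16.7% in naive, 11.3 to 12.7% in NP+ B cell and 13.4 to 13.7% in PC libraries. With both summed, the pair held 3.68% ± 0.37 in naive cells, 64.2% ± 4.72 in NP+ B cells and 69.2% ± 3.22 in PCs. How much of the Ighv1-62-3 signal came from reads of Ighv1-72 was not tested. Of 29 segments that share a stretch of 31 bases with Ighv1-72, 25 were tested. In the first share fit against naive cells, only Ighv1-62-3 was called higher in either NP+ group. Among the 25, 14 were called lower in NP+ B cells and 22 in PCs. Of all 107 Ighv segments tested, 59 and 95 were called lower. Over all genes, 6.13% were called higher and 18.6% lower in NP+ B cells, and 0.219% and 98.9% in PCs. With so few higher calls over all genes, the lack of others among these relatives is not particular to them. Ighv1-53, which shares 134 stretches, held 2.74 to 3.05% in naive cells, 0.197 to 0.784% in NP+ B cells and 0.126 to 0.594% in PCs.

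Ighv14-3, of the SM7 family, shares no such stretch with Ighv1-72. It held 0.648, 0.396 and 0.727% in naive cells, 9.76, 6.27 and 11.6% in NP+ B cells and 12.4, 10.5 and 10.1% in PCs. All 6 NP+ libraries lay above the naive ones. Its mean share was 15.6-fold higher in NP+ B cells and 18.7-fold higher in PCs than in naive cells. Its TPM was 12.9 to 21.6% of that of Ighv1-72 in naive, 10.2 to 22.0% in NP+ B cell and 16.5 to 19.5% in PC libraries. Together Ighv1-72, Ighv1-62-3 and Ighv14-3 held 71.3 to 75.3% of Ighv transcripts in NP+ B cells and 76.3 to 84.7% in PCs, against 3.84 to 4.83% in naive cells.

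The segments were then tested across the whole table with limma, scaled so that a log2 change is a change of the segment's share (the share fit), and again scaled to all listed transcripts (the level fit). Of the 170 segments, 107 reached 1 TPM in 3 or more libraries and were tested, and a call required an adjusted p under 0.05 and a change over 2-fold. Listed TPM summed to a mean of 937295 in naive cells, 909190 in NP+ B cells and 684987 in PCs, and since the level fit is relative to that sum, its log2 changes for PCs are larger than the ratios of the TPM means printed beside them. The fitted scale adds 0.5 TPM to every value. Because summed Ighv TPM was much larger in PCs, this gives a segment that is at 0 in both groups a log2 share change of -3.51 for PCs against naive cells and -3.32 for PCs against NP+ B cells. A second share fit, chosen after seeing the data, therefore used an offset of 0.01% of summed Ighv TPM in every library. It also left out the voom precision weights of the first, and the effects of these 2 choices on its counts were not separated. In the share fits, genes other than Ighv segments were scaled to summed Ighv TPM too, which accounts for the high percentages of all 12324 genes called lower when PCs were compared.

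In NP+ B cells against naive cells, 3 segments rose in share, 59 fell and 45 were not called. Over all genes, 6.13% were called higher and 18.6% lower. The median log2 change was -2.94 over the tested segments and -0.39 over all tested genes. Those that rose were Ighv1-72 (log2 change 4.16, SE 0.12, adjusted p = 1.84e-08), Ighv14-3 (3.94, SE 0.28, adjusted p = 5.16e-06) and Ighv1-62-3 (3.85, SE 0.18, adjusted p = 3.20e-07). In the second share fit 3 segments rose and 65 fell (6.4% and 17.5% of all genes). In the level fit 3 rose and 53 fell (8.67% and 11.6% of all genes), and Ighv1-72 rose by 4.39 on the log2 scale.

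Several segments used in naive cells fell steeply in NP+ B cells. Ighv1-26 held 3.23, 3.48 and 3.87% in naive cells and 0.0399, 0.0218 and 0.0218% in NP+ B cells (log2 change -6.71, SE 1.77, adjusted p = 0.0106), a call that was lost without NP+ B cell replicate 2 (adjusted p = 0.0553). Ighv1-50, a family 1 segment that shares 111 stretches with Ighv1-72, went from 2.74 to 2.92% in naive libraries to 0.00342 to 0.0130% (log2 change -7.66, adjusted p = 0.00211). Ighv5-9-1 held 1.29 to 1.60% in naive libraries and was at 0 in all NP+ B cell libraries, at least 173-fold lower against the floor of 3 reads per library. Ighv9-1 (at least 105-fold), Ighv1-61 (at least 93.1-fold) and Ighv3-1 (at least 54.8-fold) were likewise at 0 there. Ighv1-9, Ighv1-80 and Ighv1-42 each held 0.714 to 4.00% in naive libraries and at most 0.146% in NP+ B cells, and all 3 fell. The call of Ighv1-80 (log2 change -6.59, adjusted p = 0.0201) was lost in the level fit (adjusted p = 0.0550) and without any 1 of the NP+ B cell libraries. Its change was -5.71, -7.84 and -6.31 without NP+ B cell replicate 1, 2 and 3 (adjusted p = 0.0695, 0.0900 and 0.0511).

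Some leading naive segments stayed in use, and their calls differed between alternatives of the fit. Ighv1-64 held 5.21, 4.99 and 4.76% in naive cells and 3.02, 2.74 and 0.726% in NP+ B cells, and was not called (log2 change -1.45, SE 1.26, adjusted p = 0.362). Ighv3-6 held 5.08 to 5.56% and then 0.700 to 1.26%, with no overlap, but was not called either (log2 change -2.48, SE 1.34, adjusted p = 0.149). Ighv5-4 was not called (naive 3.23 to 4.29%, NP+ B cells 0.219 to 1.97%, adjusted p = 0.109). When only the naive and NP+ B cell libraries were fitted, all 3 were called lower at nearly the same change, Ighv1-64 by -1.45 (adjusted p = 0.0229), Ighv3-6 by -2.48 (adjusted p = 4.25e-05) and Ighv5-4 by -2.43 (adjusted p = 0.00884). Ighv3-6 was called as well on estimated reads (-2.73, adjusted p = 0.0432) and without PC replicate 2 or 3 (adjusted p = 0.0434 and 0.00286), and Ighv5-4 without PC replicate 2 (adjusted p = 0.00721) and with the replicate number as a block (-2.30, adjusted p = 0.0336). Ighv6-3, of the J606 family, held 2.11, 1.81 and 1.73% in naive cells and 2.20, 3.79 and 10.3% in NP+ B cells. All 3 NP+ B cell values lay above the naive ones, yet the change was not called (log2 1.23, SE 0.60, adjusted p = 0.113). It was called with the replicate block (1.27, adjusted p = 0.0371) and without NP+ B cell replicate 1 (1.72, adjusted p = 0.0326).

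**Figure D3:**
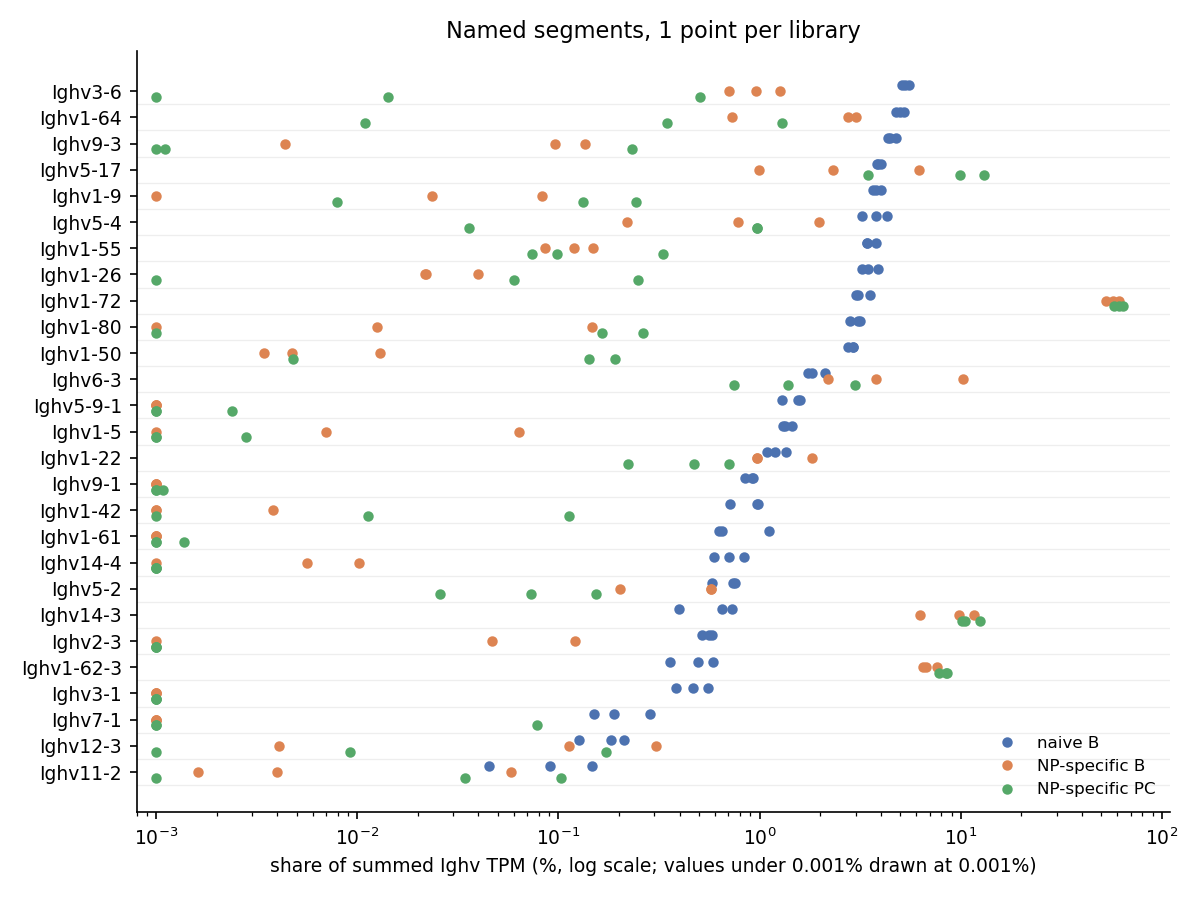
Share of summed Ighv TPM (%, log scale) of 27 named segments, ordered by naive mean, with 1 point per library and values under 0.001% drawn at 0.001%. Naive points sit close together, Ighv1-72, Ighv14-3 and Ighv1-62-3 lie to the right of them in both NP+ groups, and most others lie to the left.

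In PCs against naive cells, a comparison that shares the naive libraries with the previous one, 3 segments rose in share, 95 fell and 9 were not called. Over all genes 0.219% were called higher and 98.9% lower, so the number of falling segments is not particular to them. In the second share fit 3 rose and 83 fell (0.284% and 96% of all genes). The segments that rose were Ighv1-72 (log2 change 4.25, SE 0.12, adjusted p = 3.60e-11), Ighv14-3 (4.24, SE 0.26, adjusted p = 8.51e-09) and Ighv1-62-3 (4.10, SE 0.17, adjusted p = 2.58e-10).

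Among the falling segments, Ighv9-3, of the VGAM3.8 family, went from 4.74, 4.33 and 4.43% in naive cells to 0.00111, 0 and 0.232% in PCs (log2 change -7.23 in the second share fit, adjusted p = 0.000120). PC replicate 3, the library with liver transcripts, stood apart from the other PC libraries for this segment. Without it the change of Ighv9-3 was -11.98 in the first share fit, against -9.46 with it. Against NP+ B cells, Ighv9-3 was not called in the first share fit (-3.21, adjusted p = 0.0946). There it was called lower without PC replicate 3 (-5.73, adjusted p = 0.000158) or without NP+ B cell replicate 1 (-4.23, adjusted p = 0.0422). The second share fit did not call it (-1.01, adjusted p = 0.413). Its mean share was 0.0784% in NP+ B cells and 0.0776% in PCs. Ighv1-5 held 1.31 to 1.44% in naive libraries and at most 0.00280% in PCs, and Ighv14-4, a relative of Ighv14-3, held 0.592 to 0.840% and at most 0.000554%. Ighv3-1 held 0.383 to 0.552% in naive libraries and was at 0 in all 3 PC libraries, at least 1040-fold lower against the floor. Ighv2-3, of the Q52 family, held 0.516 to 0.581% and at most 0.000704%. All of these fell in both share fits.

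At the level of all transcripts the picture differed, since PCs carry far more Ighv RNA. In the level fit 13 segments rose and 42 fell against naive cells (4.47% and 64.5% of all genes). Ighv1-72 rose by 8.21 on the log2 scale (SE 0.14) from 192 TPM ± 19.9 to 41508 TPM ± 1427. Ighv5-17 rose by 4.92 and Ighv6-3 by 3.58 in level, while neither was called in share (adjusted p = 0.128 and 0.519). The share of Ighv5-17 was called higher without PC replicate 1 (1.53, adjusted p = 0.00796). A fall in share was not always called in level. Ighv1-55, at a mean of 3.54% of naive and 0.168% of PC Ighv transcripts, had a level change of -0.76 that was not called (adjusted p = 0.117).

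PCs and NP+ B cells, the 2 NP-binding populations, were compared to see whether usage moved between them. Only Ighv5-17 rose in share, 57 segments fell and 49 were not called, against 0.154% higher and 98.4% lower over all genes. In the second share fit 3 rose and 20 fell (0.179% and 91.4% of all genes). In the first share fit, 8 of the 57 segments called lower had a mean share in PCs that was not below that in NP+ B cells, and 5 had under 3 reads in all 6 libraries, so that count includes segments whose share was not lower in PCs. In the level fit 28 segments rose and 1 fell (3.41% and 59.7% of all genes). The 1 that fell was Ighv4-2 (log2 change -1.68, SE 0.70, adjusted p = 0.0496), with a mean of 4.45 TPM in NP+ B cells and 0.581 TPM in PCs. No segment was called lower in level when only the compared libraries were fitted, on estimated reads, with median-of-ratios scaling, with a mean of at least 10 TPM required or without any 1 of the naive libraries.

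Ighv1-72, Ighv14-3 and Ighv1-62-3 were not called between PCs and NP+ B cells. The log2 share change was 0.09 (SE 0.10, adjusted p = 0.379) for Ighv1-72, 0.30 (SE 0.22, adjusted p = 0.196) for Ighv14-3 and 0.25 (SE 0.14, adjusted p = 0.107) for Ighv1-62-3. In level they rose by 3.82, 4.03 and 3.98 on the log2 scale. Ighv1-72 TPM in NP+ B cells was 9.50% of the PC mean, while Igj was 2.35% and Iglv1 14.6%. The other PC markers named above ranged from 1.004% (Sdc1) to 14.95% (Prdm1) of their PC means. The part that a few PCs among the sorted NP+ B cells may have in these values was not tested.

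Ighv5-17 held 3.85, 4.03 and 3.89% in naive cells, 0.999, 2.33 and 6.20% in NP+ B cells and 3.44, 13.0 and 9.93% in PCs. The naive libraries were nearly equal and the others spread over more than 3-fold. Its rise in PCs over NP+ B cells (log2 change 1.64, SE 0.60, adjusted p = 0.0193) was not called without NP+ B cell replicate 1 (1.02, adjusted p = 0.110), NP+ B cell replicate 2 (1.60, adjusted p = 0.0567) or PC replicate 2 (1.25, adjusted p = 0.0662), and the library ranges overlapped. Between libraries of the same number, which are not known to be paired, it was higher in PCs in 3 of 3, and with the replicate block it was called (1.63, adjusted p = 0.00400). In the second share fit Ighv1-50 and Ighv1-19 were also called higher. Ighv1-50 held 0.191, 0.00478 and 0.143% in PCs, and Ighv1-19 held 0.209, 0.0235 and 0.311% against 0, 0 and 0.0975% in NP+ B cells. All 3 overlapped between the groups.

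Several segments fell from NP+ B cells to PCs in both share fits without overlap. Ighv3-6 held 1.26, 0.960 and 0.700% in NP+ B cells and 0.0142, 0 and 0.507% in PCs (log2 change -4.26 in the second share fit, adjusted p = 0.00369). In the first share fit its change was -5.85, and -8.28 without PC replicate 3 and -3.45 without PC replicate 2. Ighv5-2, known as VH81X and the V segment used most often early in B cell development, held 0.202, 0.575 and 0.574% and then 0.0731, 0.154 and 0.0257% (log2 change -2.41, adjusted p = 0.00117). Ighv1-22 held 0.969, 1.83 and 0.967% and then 0.704, 0.473 and 0.222% (log2 change -1.49, adjusted p = 0.00310). Ighv6-3, at 1.38, 0.743 and 3.00% in PCs, also fell (log2 change -1.59, adjusted p = 0.0195) with overlapping ranges, and this call was lost in the first share fit without NP+ B cell replicate 3 (-1.01, adjusted p = 0.0761) or PC replicate 2 (-1.12, adjusted p = 0.0519). Ighv1-64 fell as well (0.726 to 3.02% against 0.0109 to 1.29%, log2 change -3.11, adjusted p = 0.0286) with overlapping ranges, and in the first share fit it was not called without NP+ B cell replicate 1 or 2. There its change was -3.43, and -1.46 without PC replicate 2 and -4.88 without PC replicate 1, and it was also larger without NP+ B cell replicate 3. In the level fit, Ighv1-22 (2.21, adjusted p = 0.000901) and Ighv6-3 (2.13, adjusted p = 0.00637) were called higher in PCs than in NP+ B cells. Ighv3-6, Ighv5-2 and Ighv1-64 were not called in level.

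Segments of other known specificities were rare. Ighv11-2 and Ighv12-3, used by phosphatidylcholine-binding B-1 cells, held 0.0450 to 0.147% and 0.127 to 0.213% in naive libraries. In NP+ B cells and PCs they held 0 to 0.103% and 0 to 0.305%, overlapping the naive ranges, and neither was called in any comparison in both share fits (Ighv12-3 was called lower in PCs against naive cells with the first, adjusted p = 0.0249, and not with the second, adjusted p = 0.0648). That call was also lost without naive replicate 1 or 3 or PC replicate 2 or 3 (adjusted p = 0.0565, 0.0510, 0.0601 and 0.103). In the first share fit, Ighv11-2 was called lower in NP+ B cells against naive cells when only those libraries were fitted (-2.42, adjusted p = 0.0193) or without PC replicate 2 (adjusted p = 0.0356). It was called lower in PCs against naive cells without PC replicate 1 (-4.34, adjusted p = 0.00715) or 3 (-3.57, adjusted p = 0.0465). In the second share fit these changes were -2.09 and -1.37 with all libraries, without a call (adjusted p = 0.0703 and 0.154). With the replicate block Ighv12-3 was called lower in PCs against NP+ B cells (-2.27, adjusted p = 0.0355), as it was without NP+ B cell replicate 3 or PC replicate 1. Ighv7-1, the T15 segment of phosphorylcholine antibodies, held 0.150 to 0.286% in naive libraries. It was at 0 in all NP+ B cell libraries, at least 24.4-fold lower, and in 2 of 3 PC libraries, with 0.0778% in PC replicate 2. It fell against naive cells in both NP+ groups (adjusted p = 0.0189 and 0.000694), and the call in NP+ B cells was lost without NP+ B cell replicate 1 (adjusted p = 0.05005) or 2 (adjusted p = 0.0735).

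With Ighv1-72 taken out of the denominator, the remaining usage could be compared. Ighv14-3 made up 16.3 to 24.7% of the rest in NP+ B cells and 25.1 to 34.2% in PCs, and Ighv1-62-3 14.3 to 19.7% and 18.5 to 23.6%. Ighv6-3 made up 5.16, 9.84 and 21.8% of the rest in NP+ B cells against 1.80 to 2.18% in naive cells, and on this scale its rise was called (log2 change 2.41, SE 0.55, adjusted p = 0.00269). Ighv5-17 made up 9.47, 31.02 and 25.6% of the rest in PCs against 3.97 to 4.16% in naive cells, and was called as well (log2 change 2.27, adjusted p = 0.00139). The number of segments called higher in NP+ B cells was 8 of 107 on this scale, Ighv1-72 included, against 4752 of all 12324 genes. This scale moved genes upward in general: the median log2 change over all genes was 0.80, against -0.39 in the first share fit. Besides those named, Ighv1-22 was called (1.12 to 1.40% of the rest in naive cells, 2.05 to 4.74% in NP+ B cells), and 3 others, Ighv1-71, Ighv1-69 and Ighv1-48, were at 0 in naive cells and held at most 0.0242% of the rest. Among NP+ B cell libraries Ighv1-69 was above 0 only in replicate 2 and Ighv1-48 only in replicate 3. Ighv1-71 held a mean of 0.00614% of Ighv transcripts in NP+ B cells, below the floor of 0.0137 to 0.0157% in naive libraries. The 0.5 TPM added to every value is rescaled too, so nothing is read from the calls of Ighv1-71, Ighv1-69 and Ighv1-48. Ighv1-71 and Ighv1-69 are relatives of Ighv1-72 that share 11 and 120 stretches of 31 bases with it, and the part of its reads in their signal was not tested. Ighv1-71 shares more, 321 stretches or 97.6% of its own, with Ighv1-62-2. Both had the same mean share of Ighv transcripts in NP+ B cells (0.00614%) and in PCs (0.00500%). How reads were divided between them was not tested.

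Family shares depend less on how similar segments divide reads. There were 10 families with a mean share of at least 1% in a group, compared in 30 tests, and none could reach significance at this sample size (the smallest exact permutation p of 0.1 became 0.188 after adjustment). Family 1, the large J558 group with 83 of the 170 segments, held 55.4% ± 0.78 in naive cells, 70.8% ± 8.12 in NP+ B cells and 72.7% ± 3.95 in PCs, without overlap against naive cells. Without Ighv1-72 it went the other way, from 53.9% ± 0.77 of the rest to 32.4% ± 12.6 and 30.4% ± 5.39. Family 14 held 3.13% ± 0.53, 10.8% ± 3.69 and 11.5% ± 1.46. Families 2, 3, 7, 8 and 9 lay below naive cells in every NP+ library, with family 9 at 6.49% ± 0.12 in naive cells, 0.328% ± 0.23 in NP+ B cells and 0.118% ± 0.20 in PCs. Family 3 was also lower in every PC than in every NP+ B cell library (0.233% ± 0.27 against 1.15% ± 0.17). Family 10 overlapped in all comparisons and spread widely, from 1.32 to 8.41% in NP+ B cells and 0.0572 to 5.09% in PCs.

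**Figure D4:**
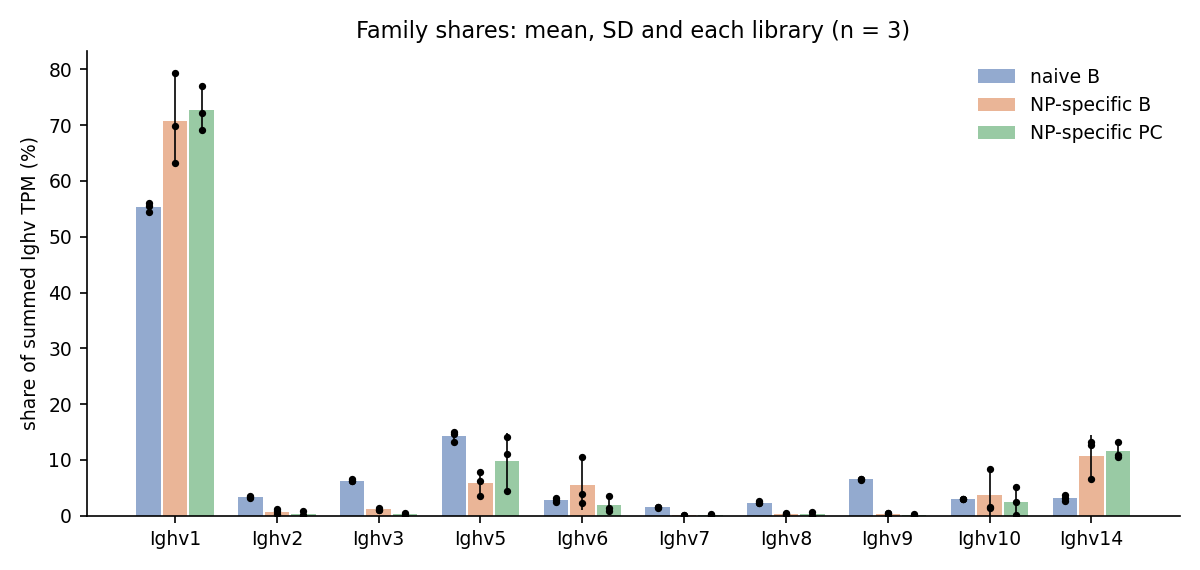
Share of summed Ighv TPM (%) of the 10 families with a mean of at least 1% in a group. Bars are means, lines are SDs (n = 3, cut at 0) and points are libraries. Family 1 and family 14 are higher in both NP+ groups, and families 2, 3, 7, 8 and 9 are lower.

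Position in the locus was examined because the rule did not use it. The 84 segments farther from the D segments held 50.5, 52.1 and 51.9% in naive cells, 69.5, 79.1 and 63.2% in NP+ B cells and 77.4, 68.7 and 72.1% in PCs (exact permutation p = 0.1 against naive cells for each). Ighv1-72 is 1 of these 84, and without it the distal share of the rest was lower in NP+ cells, at 32.0% ± 12.4 and 30.4% ± 6.52, than in naive cells (49.9% ± 0.85). The high share of Ighv1-72 did not extend to its neighbours. The 5 listed segments on either side held 2.06 to 2.77% in naive libraries, at most 0.281% in NP+ B cell replicates 1 and 3, 2.36% in replicate 2 and 0.0734 to 0.318% in PCs. Ighv8-13, the next segment 7.35 kb away, held a mean of 0.0361% in naive cells, was at 0 in NP+ B cells and held 0.0110% in PCs.

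**Figure D5:**
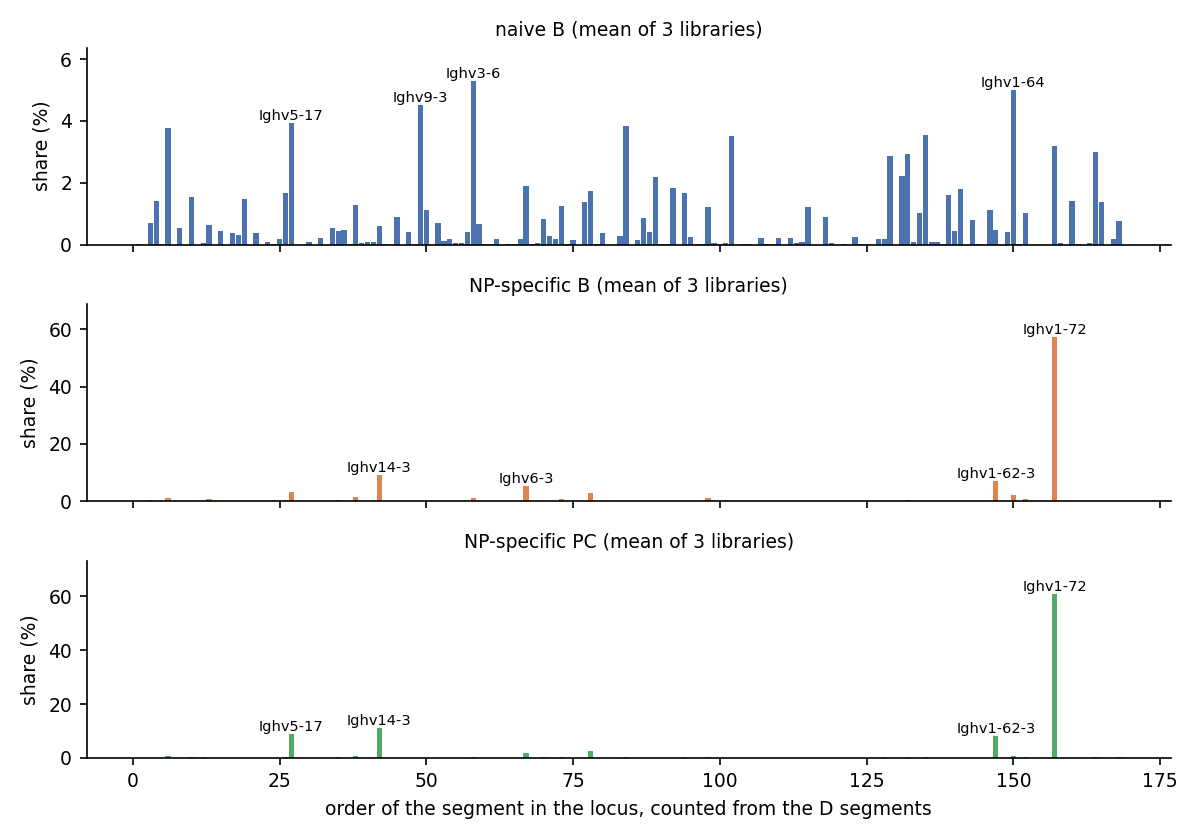
Mean share of summed Ighv TPM (%, n = 3) of the 168 annotated segments in their order from the D segments, 1 panel per group with its own vertical scale and the 4 largest segments named. Naive usage is spread over the locus, whereas single segments stand out in both NP+ groups.

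Replicate libraries differed far more among NP+ cells than among naive cells. Among segments with a mean share of at least 0.1%, the median coefficient of variation between libraries was 11.3% in naive cells (80 segments), 81.8% in NP+ B cells (30 segments) and 92.5% in PCs (28 segments). A difference of more than 10-fold between libraries of 1 group occurred for 0 of 80, 12 of 30 and 19 of 28 segments. Across 130 segments, the Pearson correlation of log2 shares was 0.959 to 0.969 between naive libraries, 0.693 to 0.747 between NP+ B cell libraries and 0.635 to 0.688 between PC libraries. Segments are not independent replicates, and these values are descriptions.

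Some segments differed widely between libraries of 1 group. Ighv5-9 held 2.32% in NP+ B cell replicate 2 and at most 0.00523% in the other 2. Ighv1-66 held 2.21% in the same library, against 0.159 and 0.0886%. Ighv2-4, a segment at 0.0362 to 0.0930% in naive libraries, held 0.705% in NP+ B cell replicate 3 and 0.791% in PC replicate 3 and was at 0 in the other NP+ libraries. Ighv1-85, the most distal segment, held 1.04% in PC replicate 2 alone among PCs, Ighv4-1 0.749% in PC replicate 3 and Ighv8-5 0.516% in PC replicate 1. Ighv10-3 held 6.38, 1.21 and 0.989% in NP+ B cells and 2.00, 5.09 and 0.00113% in PCs, against 1.54 to 1.92% in naive cells. These segments were singled out after their values were seen.

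The light and constant chain genes show the setting of these heavy chains. Iglv1, the lambda variable segment known to pair with V186.2, had 1420 TPM ± 53.8 in naive cells, 30943 ± 4632 in NP+ B cells and 212146 ± 15496 in PCs. It rose by 4.48 and 7.67 on the log2 scale against naive cells in the level fit (adjusted p = 2.03e-08 and 1.88e-10). Ighv1-72 TPM was 12.2 to 15.8% of Iglv1 TPM in naive, 9.41 to 17.1% in NP+ B cell and 18.7 to 20.7% in PC libraries. Igkc, the kappa constant gene, fell in NP+ B cells (log2 change -2.24, adjusted p = 0.000178) and was not called in PCs (0.43, adjusted p = 0.169). Ighm, the IgM constant gene, held 59.6 to 61.6% of summed Igh constant TPM in naive, 68.0 to 73.7% in NP+ B cell and 91.4 to 93.8% in PC libraries. Ighd, part of that sum, fell between naive and NP+ cells, so the share of Ighm does not show the switched isotypes. Ighg2b, an IgG constant gene, had a mean of 11.4 TPM in naive cells, 1522 in NP+ B cells and 1235 in PCs (log2 level change 7.03 and 7.12 against naive cells, adjusted p = 4.30e-07 and 1.97e-08). Ighg3 and Ighg2c were also called higher in both NP+ groups, Ighg3 by 5.85 and 8.13, and Igha was called higher in PCs (5.55). The listed Ighj and D segments were all at 0 in the table, and V(D)J junctions were not analysed here.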

How the data were processed

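RNA-seq libraries were made by the authors from sorted cells with SMART-Seq v4 and Nextera XT and read single-end on 2 kinds of sequencer (50 or 75 bases); which library was read on which is not stated. Reads were pseudoaligned by the authors with kallisto (mm10 per the labels), and the deposited TPM table, corrected for transcript length, lists each gene symbol once. The log2 table was deposited by the authors after voom, and estimated reads per segment were derived from it here, taking its lowest value in a library as a gene without reads. The transcript annotation is not given in the sources used here. Tables without Ig genes were not used.

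Each TPM was divided by the summed TPM of all 170 segments. limma 3.58.1 (R 4.3.3) fitted voom values (offset 0.5) of the 12324 genes that reached 1 TPM in 3 or more of the 9 libraries, with group means only and Benjamini-Hochberg adjustment over all genes. The second share fit and the fit with an offset of 0.1 used no voom weights. Library size was summed Ighv TPM (share fit) or summed listed TPM (level fit). Values per library were compared by two-sided exact permutation of the difference of means. Alternatives were other offsets, filters, units, scalings, sample sets, a replicate block and leaving out each library. Fits were tested on simulated data. V regions are the last coding exon without its first 11 leader bases, from GENCODE M21, and stretches of 31 bases were counted in its transcripts.

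Named segments were Ighv1-72, those with a mean share of at least 3% in a group or 10% in a library, Ighv11-2, Ighv12-3, Ighv7-1 and Ighv5-2, and per comparison the 8 largest called rises and falls without overlap and with a mean of at least 20 TPM in the higher group. Segments outside this rule are given as examples. Members, lists and tests were chosen with earlier results of these data known.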

Additional observations from a re-analysis of the deposited data

How the results depend on the processing

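Differences of Ighv1-72 share, largest segment share, effective number of segments and summed Ighv TPM kept their direction in each alternative run, estimated reads, the filter, pooling of Ighv1-62-3 and leaving out single libraries included, while sizes moved: summed Ighv RNA on estimated reads gave wider folds for PCs. Their tests cannot pass 0.05 with 3 libraries a group, which says nothing about stability. Segments near the floor are limited by depth in naive and NP+ B cell libraries, and segments that share reads by the similarity of their sequences. Without Ighv1-72 in the denominator, the difference of distal share reversed to -17.9 percentage points for NP+ B cells against naive cells, -19.5 for PCs against naive cells and -1.61 for PCs against NP+ B cells. In the same order the family 1 difference reversed to -21.4, -23.5 and -2.05, and for PCs against naive cells those of families 5, 6 and 10 reversed to 10.02, 2.02 and 3.22. These follow from removing the largest segment.

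Leaving out single libraries gave ranges across 0 for PCs against NP+ B cells in distal share (-1.59 to 6.37 points), family 1 (-1.82 to 6.25), family 7 (-0.0183 to 0.116), family 10 (-2.55 to 1.05) and family 14 (-1.33 to 1.99), and for family 10 against naive cells in NP+ B cells (-1.51 to 2.04) and PCs (-1.74 to 0.772). Counts of segments called higher in share between PCs and NP+ B cells ran from 0 to 4, beside 15 to 23 of 12324 genes. Those called lower in level ran from 0 to 3, beside 7097 to 7486 of 12324 genes.

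In the share fit, scaling without Ighv1-72 gave 8 higher in NP+ B cells against naive cells (4752 of 12324 genes). Requiring a mean of 10 TPM left 69 segments tested. Of these, 38 and 59 were lower against naive cells in NP+ B cells and PCs, and 27 between PCs and NP+ B cells. Over all 6594 genes, 828, 6491 and 6438 were lower in the same order. With no filter 146 and 108 of 156 were lower in PCs against naive and NP+ B cells, beside 28411 and 28348 of 28577 genes. Between PCs and NP+ B cells, higher calls numbered 4 with an offset of 0.1 and no weights and 2 with no filter. They numbered 3 with the proportional offset and no weights and 2 with the replicate block. Over all genes, higher calls in the same order numbered 30 of 12324, 20 of 28577, 22 of 12324 and 18 of 12324. Lower calls numbered 20 with the proportional offset and 39 with the offset of 0.1, both without weights, beside 11267 and 11989 of 12324 genes. In the level fit, a mean of 10 TPM gave 33 lower in NP+ B cells and 7 higher and 25 lower in PCs against naive cells. Over all 6594 genes these were 496 lower, 303 higher and 4622 lower. Median-of-ratios scaling gave 5 higher in NP+ B cells, 20 higher and 18 lower in PCs, and 54 higher and 0 lower between PCs and NP+ B cells. Over all 12324 genes this scaling gave 1591 higher, then 2854 higher and 1174 lower, and then 2572 higher and 1416 lower. The lower level count between PCs and NP+ B cells was 2 with an offset of 0.1 and no weights or with no filter. It was 0 with a mean of 10 TPM, estimated reads or only the libraries compared. Over all genes, lower calls in the same order numbered 8078 of 12324, 7427 of 28577, 4824 of 6594, 5013 of 12324 and 7321 of 12324. The cause was not tested.

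Under the proportional offset, changes of Ighv5-9-1, Ighv9-1 and Ighv1-61 between PCs and NP+ B cells reversed to 0.15, 0.0496 and 0.0621 on the log2 scale. Ighv1-22 in NP+ B cells against naive cells turned from -0.00239 to 1.18 when scaled without Ighv1-72. The median over all genes moved from -0.39 to 0.80 on the same scale, so this turn is not particular to the segment. Ighv1-26 between PCs and NP+ B cells ranged from -2.23 to 1.86 when single libraries were left out. The latter, without PC replicate 1, was called higher (adjusted p = 0.0115), whereas with all libraries the change was -0.56 and not called. Of the other alternatives for single segments, 1315 left the call as it was, 26 lost it and 28 gained one.

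Whether replicate numbers pair the libraries is not given. Deviations of same-numbered libraries correlated at 0.0124 to 0.115 over all genes. Over the 107 segments the NP+ B cell and PC libraries of 1 number correlated at 0.210, 0.352 and 0.378, and those of different numbers at -0.331 to -0.00748, which is a hint from the data and not from the design. With the replicate block, 4 segments were higher and 58 lower in share in NP+ B cells against naive cells, 3 and 91 in PCs against naive cells, and 2 and 58 between PCs and NP+ B cells. Over all 12324 genes these were 803 and 2266, 28 and 12179, and 18 and 12129. Of the named segments, the block made Ighv6-3 and Ighv5-4 called in NP+ B cells against naive cells and Ighv12-3 in PCs against NP+ B cells.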
